A study of Mus musculus with 6 samples.

Results

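The genes described here are the ligands, receptors and Smads through which a cell sends and reads transforming growth factor beta (TGF-beta). They were chosen by name, at a time when earlier results of these data were known, and are Tgfb1, Tgfb2, Tgfb3, Tgfbr1, Tgfbr2, Tgfbr3, Smad2, Smad3, Smad4 and Smad7. All 10 were found among the 21959 genes with a usable value in both conditions.

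RNA-seq was done on primary colon tumor cells with and without PID, the Pak inhibitor domain, a peptide that blocks the kinase activity of Group I Paks. PID- cells were of the genotype CDX2P-NLS-Cre;APC Δ/+ and PID+ cells had the ROSA26-PID allele in addition. Both groups thus carried the Cre transgene and 1 Apc allele in which Cre causes a frameshift and a truncated protein, and they differed in the PID transgene. The Cdx2 promoter drives Cre in the epithelium of the distal gut, and the cells were cultured from adenomas of 3 mice per condition. The labels number the PID+ mice 4, 7 and 26 and the PID- mice 1, 2 and 3, and state neither age nor strain. They call the PID- cells normal, whereas the publication describes these cells as derived from tumors, and the pooled values do not settle this conflict. The label numbers of the PID- mice differ from the cell line numbers in the publication.

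The deposited values are 1 FPKM per gene and condition (fragment counts corrected for the length of the transcript and the size of the library), made from the pooled reads of the 3 mice. No difference has a replicate check, no test over mice could be made, and each interval given with a value is the deposited confidence interval, which covers the error model of the quantification only. The PID transgene has no value of its own, so the condition labels could not be checked on it. Among epithelial markers, the keratin Krt8 was at 1319 FPKM in PID- cells and 2745 FPKM in PID+ cells, and Epcam, an epithelial adhesion molecule, was at 124 FPKM in PID- cells and 401 FPKM in PID+ cells. Markers of the gut epithelium were mixed. Krt20 was at 73.5 and 158 FPKM in PID- and PID+ cells, Cdh17 at 25.9 and 1.67 FPKM, Cdx2 at 8.04 and 0.542 FPKM and Lgals4 at 3.43 and 1.86 FPKM in the same order, while Vil1 was below 1 FPKM in both conditions and Cdx1 was listed at 0 in both.

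TGF-beta is secreted in a latent form, and once released it joins a type II and a type I receptor kinase, which phosphorylate Smad2 and Smad3. These pair with Smad4 and enter the nucleus to regulate transcription, and Smad7 is among the induced genes and feeds back on the receptors. In the colon the pathway restrains epithelial growth and is often disabled in carcinomas, while in tumor cells that still respond it can drive the epithelial to mesenchymal transition.

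A ligand and a co-receptor were far lower in PID+ cells, whereas the signaling receptors and the Smads were within 2-fold between the conditions (with equal Gapdh, Smad4 was just past it). Tgfb2 and Tgfbr3 fell past 3-fold, and for these 2 genes of the 10 the deposited intervals did not overlap. No member was past 3-fold in the other direction. Over all 21959 genes, 1.72% fell and 1.04% rose past 3-fold on the FPKM + 1 scale, and the intervals were apart for 0.542% on the lower side and 0.187% on the higher side. At 2-fold the members numbered 3 lower (Tgfb1, Tgfb2 and Tgfbr3) and 1 higher (Tgfb3), beside 3.77% and 3.31% of all genes. All 10 members had a mean FPKM above 1, and among the 11480 genes with such a mean 3.28% were past 3-fold lower, 6.86% were past 2-fold lower, 6% were past 2-fold higher and 1.03% had intervals apart on the lower side. With 10 members, these counts are small numbers, and they are a description of the pooled values. The median log2 change of the members was -0.05, against 0.00 over all genes.

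Among the ligands, Tgfb2, an isoform known for its part in development and in mesenchymal transitions, was at 19.9 FPKM (interval 5.09 to 34.7) in PID- cells and 0.492 FPKM (interval 0 to 1.18) in PID+ cells. The intervals were apart, with the whole PID+ interval below the PID- one. The ratio of the FPKM values was 40.5, and the log2 change of FPKM + 1, which understates the change of a low gene, was -3.81 (error 0.61, propagated from the deposited intervals). From the estimated value of a read, the Tgfb2 value rested on about 18551 reads in PID- cells and about 332 in PID+ cells, an approximate number because the gene has 2 transcripts, while the deposited PID+ interval reached 0. Its level stood at percentile 71.3 of the expressed genes in PID- cells and at percentile 28.9 in PID+ cells. The gene (ENSMUSG00000039239.11) lies on the minus strand at chr1:186622792-186705989 in GRCm38.

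Tgfb1, the isoform made by most tissues, was at 41.7 FPKM (interval 15.5 to 67.9) in PID- cells and 18.7 FPKM (interval 4.91 to 32.5) in PID+ cells. Its log2 change was -1.11 (error 0.67), past 2-fold but with intervals that overlapped. Tgfb3, the remaining isoform, was at 1.74 and 4.75 FPKM in PID- and PID+ cells, with intervals of 0 to 5.04 and 0 to 10.02. It was the only ligand with the higher value in PID+ cells, by 1.07 on the log2 scale (error 1.09), and both of its intervals reached 0 and overlapped. That difference was below 2-fold when the conditions were scaled to equal total FPKM (0.98) or to equal Gapdh (0.57).

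Added together, the ligands came to 63.4 FPKM in PID- cells and 24.0 FPKM in PID+ cells, a ratio of 2.64. Tgfb1 made up 65.8% of this sum in PID- cells and 78.1% in PID+ cells. The share of Tgfb2 was 31.4% in PID- cells and 2.05% in PID+ cells, and that of Tgfb3 was 2.75% and 19.8%. Tgfb1 had the highest value of the ligands in both conditions, but its interval overlapped that of Tgfb2 in PID- cells and that of Tgfb3 in PID+ cells. The value of Tgfb2 was above that of Tgfb3 in PID- cells and below it in PID+ cells. In PID+ cells the intervals of Tgfb2 and Tgfb3 overlapped, while in PID- cells the upper bound of Tgfb3, 5.04 FPKM, lay just under the lower bound of Tgfb2, 5.09 FPKM.

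The receptors showed a split between the kinases and the co-receptor. Tgfbr2, the type II kinase that binds the ligand first, was at 61.0 FPKM (interval 27.0 to 95.0) in PID- cells and 61.1 FPKM (interval 27.8 to 94.4) in PID+ cells, and its intervals overlapped almost completely. Tgfbr1, the type I kinase that phosphorylates the Smads, was at 30.3 FPKM (interval 12.6 to 48.0) in PID- cells and 29.1 FPKM (interval 12.3 to 46.0) in PID+ cells, and these intervals overlapped too. The log2 changes were 0.00 (error 0.55) for Tgfbr2 and -0.05 (error 0.57) for Tgfbr1. The level of Tgfbr2 over that of Tgfbr1 was 2.01 in PID- cells and 2.097 in PID+ cells, with intervals of the receptors that overlapped within each condition.

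Tgfbr3, also called betaglycan, is a membrane proteoglycan without a kinase domain that presents ligand to the type II receptor and is needed most for TGF-beta2, which binds that receptor weakly by itself. It was at 10.7 FPKM (interval 3.12 to 18.2) in PID- cells and 0.189 FPKM (interval 0 to 0.643) in PID+ cells. The intervals were apart, the ratio of the FPKM values was 56.5 and the log2 change was -3.29 (error 0.54). About 11875 reads lay behind the PID- value and about 152 behind the PID+ value. The gene (ENSMUSG00000029287.11) lies on the minus strand at chr5:107106570-107289629, and its level moved from percentile 57.6 to percentile 23.1 of the expressed genes. The ligand and the co-receptor that serves it were thus the members whose intervals were apart, both on the lower side.

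The receptor-regulated Smads carry the signal from the receptors. Smad2 was at 29.5 FPKM (interval 8.47 to 50.5) in PID- cells and 28.4 FPKM (interval 8.37 to 48.5) in PID+ cells. Smad3, which unlike Smad2 binds DNA directly, was at 33.1 FPKM (interval 7.80 to 58.4) in PID- cells and 34.8 FPKM (interval 5.63 to 63.9) in PID+ cells. The intervals of each gene overlapped, and the log2 changes were -0.05 (error 0.70) and 0.07 (error 0.79). Smad3 exceeded Smad2 by a factor of 1.12 in PID- cells and 1.22 in PID+ cells, and their intervals overlapped in both.

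Smad4, the common partner of the activated Smads and a tumor suppressor of the colon, was at 51.4 FPKM (interval 20.9 to 81.8) in PID- cells and 38.2 FPKM (interval 13.7 to 62.8) in PID+ cells. Smad7, the inhibitory Smad, was at 19.8 FPKM (interval 1.20 to 38.4) in PID- cells and 25.6 FPKM (interval 2.94 to 48.3) in PID+ cells. Both pairs of intervals overlapped, with log2 changes of -0.42 (error 0.62) for Smad4 and 0.36 (error 0.89) for Smad7. The sign for Smad7 turned to -0.24 with equal Gapdh, as did that for Smad3 (-0.53) and Tgfbr2 (-0.61), and under that scaling the median over all genes that averaged 5 FPKM or more was itself at -0.58, which left Tgfbr2 and Smad3 near that shift and Smad7 above it. With equal total FPKM, Smad3 was at -0.03 and Tgfbr2 at -0.10, and Tgfbr1 was at 0.26 once the median of its chromosome was subtracted, so the small changes of these genes have no firm sign. Smad4 went to -1.02 with equal Gapdh, which made 4 members past 2-fold lower in place of 3. Since the cells were measured in bulk, fewer cells with a transcript and less of it per cell cannot be told apart for any of these genes.

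**Figure D1:**
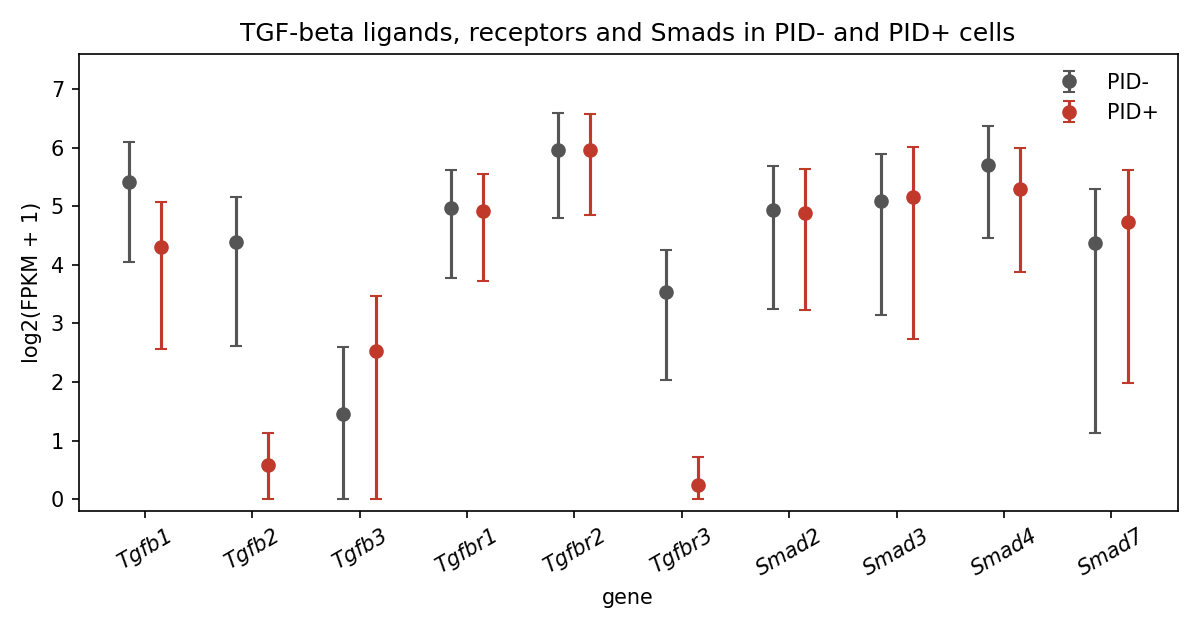
FPKM of the 10 genes in PID- cells (gray) and PID+ cells (red), plotted as log2(FPKM + 1), with bars for the deposited confidence intervals of the pooled values. The bars of Tgfb2 and Tgfbr3 do not overlap between the conditions, and those of the other genes do.

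In PID- cells the order of the levels, from the highest, was Tgfbr2, Smad4, Tgfb1, Smad3, Tgfbr1, Smad2, Tgfb2, Smad7, Tgfbr3 and Tgfb3. In PID+ cells it was Tgfbr2, Smad4, Smad3, Tgfbr1, Smad2, Smad7, Tgfb1, Tgfb3, Tgfb2 and Tgfbr3. Each of the 9 pairs of neighbors in either order had overlapping intervals, and differences between neighbors were not tested. Tgfbr2 and Smad4 led both orders, and Tgfb2 and Tgfbr3 were at the bottom in PID+ cells.

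The positions of the genes were set against the genes around them, with windows chosen after the values were seen. Within 5 Mb of Tgfb2 on either side there were 38 other genes that averaged 5 FPKM or more, with a median log2 change of 0.01 and a range from -1.89 to 1.23. Around Tgfbr3 there were 51 such genes with a median of 0.09, of which 2 were past 3-fold lower. Neither region as a whole was lower in PID+ cells. Around Tgfb1, on chromosome 7, the 83 genes had a median of 0.31, so that the lower Tgfb1 value stood against neighbors that were slightly higher. Smad2, Smad4 and Smad7 lie on chromosome 18, as does Apc, and the median of the 234 genes there was -0.02. The exons of the 10 members overlapped no other coding gene in the annotation.

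The other genes of the pathway were taken from 8 lists, which together hold 123 genes, of which 122 had values. In the union of the lists 11 genes fell past 3-fold and 1 rose, and the intervals were apart for 5 and 1 of these genes. The shares over all genes were 1.72% lower and 1.04% higher past 3-fold, with intervals apart for 0.542% and 0.187%. The 11 became 17 with a pseudocount of 0.1 and also with equal Gapdh. The number of all genes past 3-fold lower went from 377 to 795 and to 662 under these 2 alternatives. The median over the lists was -0.14. At 2-fold 20 were lower and 3 higher, and with equal Gapdh these counts were 39 and 1, beside 2408 lower and 259 higher among all genes in place of 828 and 726.

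Of the 18 genes that store or activate latent TGF-beta, 1 fell past 3-fold and none rose, with a list median of -0.10. The number past 3-fold lower was 3 with a pseudocount of 0.1, 3 with equal Gapdh and 2 once chromosome medians were taken off, and 4 genes (Ltbp1, Lrrc32, Fbn1 and Itgb5) were past 2-fold lower in the main analysis and 6 with equal Gapdh. The gene that fell was Itgb5, the beta subunit of an integrin that can release TGF-beta from its latent complex, at 30.6 FPKM (interval 7.67 to 53.5) in PID- cells and 2.23 FPKM (interval 0 to 4.74) in PID+ cells. These intervals were apart, and the log2 change was -3.29. The most abundant genes of the list were the integrin subunit Itgb1 (703 and 490.4 FPKM in PID- and PID+ cells), the activator thrombospondin Thbs1 (306 and 344 FPKM) and the membrane protease Mmp14 (121 and 181 FPKM), and all 3 had overlapping intervals.

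Of the 14 measured activin, nodal and GDF ligands and their traps, 1 fell past 3-fold (2 with a pseudocount of 0.1 or equal Gapdh), and 7 were below 1 FPKM in both conditions; Gdf1 was not analysed here. Gdf15, a stress-induced distant member of the family, was at 78.3 FPKM (interval 32.6 to 124) in PID- cells and 19.2 FPKM (interval 3.58 to 34.9) in PID+ cells, with a log2 change of -1.97 and intervals that overlapped. Inhba, the subunit of activin A, was at 89.6 FPKM in PID- cells and 48.4 FPKM in PID+ cells. Fst, which binds and neutralizes activin, was at 71.1 FPKM in PID- cells and 39.3 FPKM in PID+ cells. Both had the lower value in PID+ cells, within 2-fold in the main analysis and past it with equal Gapdh, when 4 genes of the list were past 2-fold lower in place of 2.

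Among 13 BMP ligands, 1 fell (2 with a pseudocount of 0.1, equal Gapdh or chromosome medians taken off) and 1 rose past 3-fold, and 8 were below 1 FPKM in both conditions. Bmp2, an activating ligand, was at 19.2 FPKM (interval 7.40 to 31.0) in PID- cells and 0.260 FPKM (interval 0 to 0.779) in PID+ cells, with a log2 change of -4.00. Bmp3, which antagonizes other BMPs, was at 0.377 FPKM (interval 0 to 0.888) in PID- cells and 7.97 FPKM (interval 2.42 to 13.5) in PID+ cells, with a log2 change of 2.70. The intervals of both genes were apart, in opposite directions. Bmp4, whose exons overlap another annotated coding gene, was at 14.9 FPKM in PID- cells and 4.79 FPKM in PID+ cells, and its intervals overlapped.

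None of the 12 other receptors of the superfamily was past 3-fold (1 was higher with a pseudocount of 0.1), and the median was 0.12. The most abundant were the type I BMP receptors Acvr1 (27.5 and 20.8 FPKM in PID- and PID+ cells) and Bmpr1a (18.2 and 23.6 FPKM) and the type II receptor Bmpr2 (17.5 and 13.4 FPKM). All 4 other Smads had the lower value in PID+ cells, and none was past 2-fold on the FPKM + 1 scale. The BMP-regulated Smads were at 17.3 and 9.92 FPKM for Smad1 and 17.5 and 10.4 FPKM for Smad5, and the inhibitory Smad6 was at 2.95 and 1.08 FPKM, with a list median of -0.72 and intervals that overlapped. Smad9, another BMP-regulated Smad, was at 0.610 and 0.0198 FPKM. With a pseudocount of 0.1 in place of 1, 2 of the 4 were past 2-fold lower and 1 past 3-fold, and with equal Gapdh 3 were past 2-fold lower. With 4 genes and no replicate, this common direction was not tested.

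Of the 30 partners and regulators of the Smads, none was past 3-fold, 2 were past 2-fold lower, and the median was -0.13. That count was 0 once chromosome medians were taken off and 8 with equal Gapdh, when 1 was also past 3-fold lower. The highest were the ubiquitin ligase Nedd4 (384 and 293 FPKM in PID- and PID+ cells), Fkbp1a, which holds the type I receptor inactive (249.8 and 218 FPKM), and Pmepa1, a target gene that blocks Smad activation (131 and 143 FPKM). None of the 10 mediators outside the Smad route was past 2-fold (4 were lower with equal Gapdh), and the median was -0.33. Here the small GTPase Rhoa, whose exons overlap another coding gene, was at 246 FPKM in PID- cells and 206 FPKM in PID+ cells. The adaptor Traf4 was at 42.1 and 54.6 FPKM and Tab2, which activates the kinase Tak1, at 53.3 and 37.5 FPKM in the same order.

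The list with the most genes past 3-fold held 25 textbook target genes of TGF-beta. Of these 8 fell past 3-fold, none rose, 15 were within 2-fold, and the intervals were apart for 3. For comparison, 1.72% of all genes fell and 1.04% rose past 3-fold, and 0.542% had intervals apart on the lower side. Where the mean FPKM was 1 or more, 3.28% of genes fell past 3-fold and 1.03% had intervals apart on that side. The list median was -0.47, and -0.04 among its 18 genes that averaged 5 FPKM or more.

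Lox, which crosslinks collagen, was at 10.4 FPKM (interval 3.15 to 17.7) in PID- cells and 0.220 FPKM (interval 0 to 0.582) in PID+ cells, and its log2 change was -3.23, with intervals apart. Col1a2, a chain of type I collagen, was at 11.9 FPKM (interval 4.07 to 19.7) in PID- cells and 0.0654 FPKM (interval 0 to 0.242) in PID+ cells, and its log2 change was -3.60. For both genes the whole PID+ interval lay below the PID- one.

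For 5 others that fell, the intervals overlapped. The collagen chain Col1a1 was at 11.9 FPKM in PID- cells and 2.32 FPKM in PID+ cells (-1.95 on the log2 scale), and Col3a1 was at 6.35 FPKM in PID- cells and 0.339 FPKM in PID+ cells (-2.46). The matrix protein Tgfbi, named for its induction by TGF-beta, was at 5.57 FPKM in PID- cells and 0.282 FPKM in PID+ cells (-2.36). The repressor Snai2, which drives mesenchymal transitions, and the cell cycle inhibitor Cdkn2b complete the group. Snai2 was at 11.5 FPKM in PID- cells and 1.01 FPKM in PID+ cells (-2.64). Cdkn2b was at 31.4 FPKM in PID- cells and 9.74 FPKM in PID+ cells (-1.59), close to the threshold. With equal upper quartiles of FPKM, Cdkn2b was no longer past 3-fold. The same held once chromosome medians were taken off, that of chromosome 4 being -0.31. In both alternatives the target genes past 3-fold lower numbered 7 in place of 8.

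The most abundant targets were at similar levels in both conditions. Fibronectin, Fn1, was at 1118 FPKM in PID- cells and 1597 FPKM in PID+ cells, with intervals that reached 0 in both. Ccn2, a matricellular protein and a widely used target, was at 994 FPKM in PID- cells and 1024 FPKM in PID+ cells, and its log2 change was 0.04. With Thbs1 at 0.17, the 3 targets at the highest levels were all within 2-fold.

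**Figure D2:**
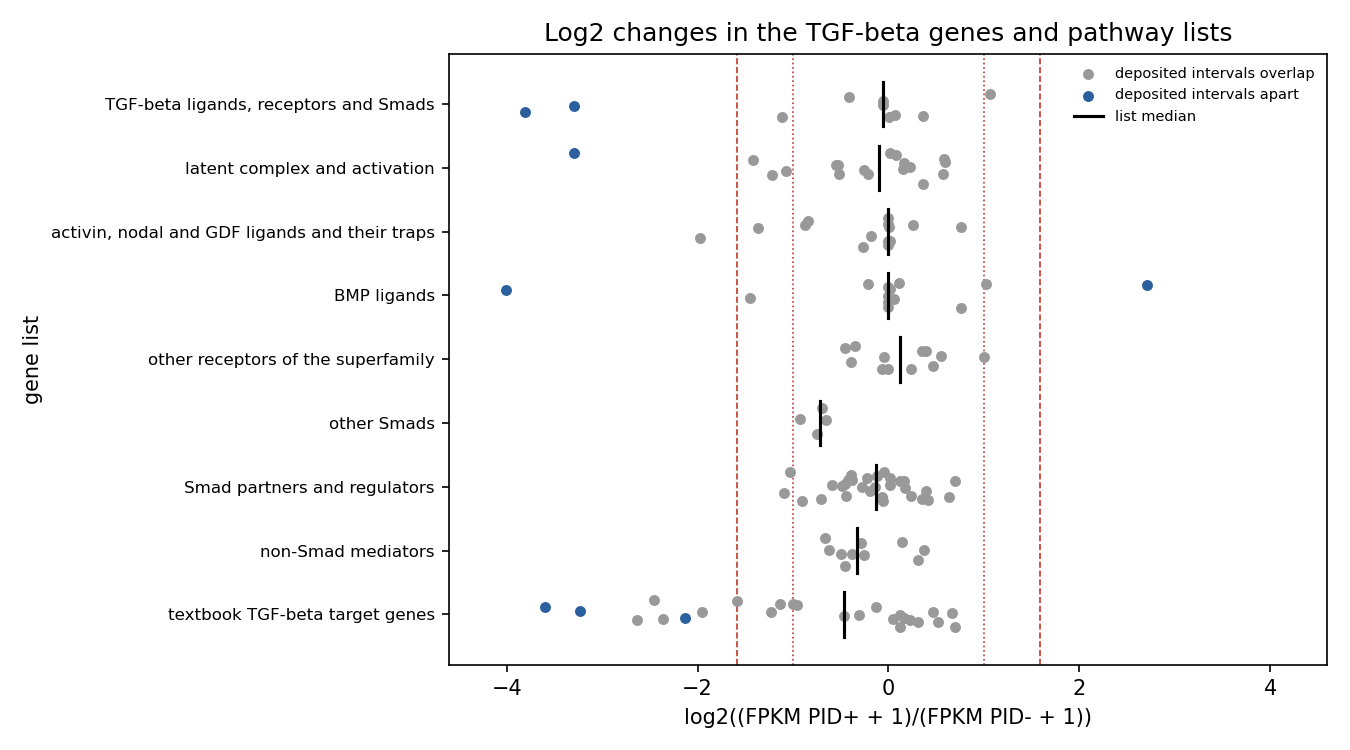
Log2 change of FPKM + 1 between PID+ and PID- cells for the 10 genes and for the genes of each pathway list, with list medians as black lines. Blue points are genes whose deposited intervals are apart, dashed lines mark 3-fold and dotted lines 2-fold, and the target genes hold the most points beyond 3-fold on the lower side.

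Several target genes are also markers of fibroblasts or smooth muscle, 5 of the 25. Of 10 fibroblast markers 4 were past 3-fold lower and none higher, and their summed level was 36.3 FPKM in PID- cells and 3.14 FPKM in PID+ cells, with Col1a1 the most abundant by the mean of both conditions. In all, 9 of the 10 had the lower value in PID+ cells, as the target genes among them did. Of the fibroblast markers that are not in the target list, Dcn fell past 3-fold and was at 2.39 FPKM in PID- cells and listed at 0 in PID+ cells. Postn was at 2.09 and 0.0658 FPKM and Pdgfrb at 0.987 and 0.0896 FPKM in PID- and PID+ cells. Pdgfra was at 0.243 and 0.188 FPKM in the same order, and Lum was listed at 0 in both conditions. Of 6 smooth muscle markers 1 was past 3-fold lower, the sum was 16.0 and 6.05 FPKM in that order, Acta2 was the most abundant, and Myh11 was at 0.0345 and 0.0544 FPKM. Their part in the lower target genes was not tested.

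Of 12 epithelial markers 2 rose and 2 fell past 3-fold, and the sum was 4994 FPKM in PID- cells and 9087 FPKM in PID+ cells, led by Krt19 in PID- cells (2073 FPKM) and by Krt18 in PID+ cells (2843 FPKM). Epcam and Cldn7 were higher (1.68 and 1.77 on the log2 scale) and Cdx2 and Cdh17 lower (-2.55 and -3.33). At 2-fold 6 of the 12 were higher and 2 lower, and 8 had the higher value in PID+ cells and 3 the lower one. Cdh1, the gene of E-cadherin, was at 88.0 FPKM in PID- cells and 192 FPKM in PID+ cells (1.12), with intervals that overlapped. The 6 endothelial markers summed to 1.46 and 4.08 FPKM in PID- and PID+ cells, with Kdr the highest and Pecam1 at 0.0931 and 0.0960 FPKM. The 8 leukocyte markers summed to 45.7 and 51.0 FPKM, led by Cd14, while the defining Ptprc was at 0.00811 and 0.0264 FPKM and Cd3e was listed at 0.

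Platelets are a rich source of TGF-beta1, and mast cells can release it as well, so their markers were read too. Of 6 platelet and megakaryocyte markers 1 rose past 3-fold, Ppbp, at 231 FPKM in PID- cells and 2321 FPKM in PID+ cells, while Pf4 was at 0.372 and 0.947 FPKM and the defining Gp9 at 0.0170 and 0 FPKM in the same order. Itga2b, the integrin subunit of platelets, was at 2.08 and 1.19 FPKM. The sum of that list was 234 and 2323 FPKM. Of 6 mast cell and basophil markers 1 rose, Mcpt8, at 9.60 FPKM in PID- cells and 82.5 FPKM in PID+ cells, and Cpa3, Tpsb2, Fcer1a and Ms4a2 were listed at 0 in both, with a sum of 10.01 and 83.1 FPKM. The part of such cells in the TGF-beta values was not tested.

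The miR-200 family was searched against the 3' UTRs of the members, because it is a known repressor of the mesenchymal state and has described targets in the pathway, and the sequences show which members carry its seed matches. The family is not measured by this poly(A) RNA-seq. The mature forms fall into 2 groups by seed (bases 2 to 8, in capitals), as given by RefSeq on GRCm38.p6. The first group has the seed AAUACUG.
mmu-miR-200b-3p: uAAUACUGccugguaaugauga
mmu-miR-200c-3p: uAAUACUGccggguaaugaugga
mmu-miR-429-3p: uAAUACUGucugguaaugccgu
The second group has the seed AACACUG.
mmu-miR-200a-3p: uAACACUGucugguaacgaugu
mmu-miR-141-3p: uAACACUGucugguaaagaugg

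The reverse complement of each seed, CAGTATT for the first group and CAGTGTT for the second, was looked for on the transcript strand of the longest annotated 3' UTR of each member. Tgfb2, with a 3' UTR of 2656 bases, held CAGTGTT at 2 places and CAGTATT at none. Tgfbr3, with 3069 bases, likewise held CAGTGTT at 2 places and CAGTATT at none. Of all 3' UTRs within 20% of the same length, 33.9% (830 of 2451) held CAGTGTT for Tgfb2 and 38.4% (828 of 2156) for Tgfbr3, so a match is common at these lengths. The sites are shown 5' to 3' with the match in capitals, for the members that were past 3-fold lower.
Tgfb2, chr1:186625335-186625356, minus strand: gagttttgattcatCAGTGTTt
Tgfb2, chr1:186624055-186624076, minus strand: aggtttgagctccaCAGTGTTt
Tgfbr3, chr5:107108538-107108559, minus strand: gctcagtgactcttCAGTGTTa
Tgfbr3, chr5:107107415-107107436, minus strand: cccagctcttgttaCAGTGTTt

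Members that were not past 3-fold held matches as well. CAGTGTT occurred at 1 place in Tgfbr1 (44.6% of 3' UTRs of like length hold it), at 1 place in Tgfbr2 (57.7%) and at 2 places in Smad2 (58.9%). CAGTATT occurred at 1 place in Smad2 (43.5%) and at 1 place in Smad7 (14.4%). No match of either kind was found in Tgfb1, Tgfb3, Smad3 or Smad4, whose 3' UTRs run from 135 bases in Tgfb1 to 3495 in Smad3. A match of letters is a description and says nothing of whether the microRNA acts there.

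For reference, the kinases that PID targets were at 23.4 and 17.6 FPKM for Pak1 and 52.6 and 39.5 FPKM for Pak2 in PID- and PID+ cells. Pak3 fell past 3-fold, with 75.9 FPKM (interval 0 to 172) in PID- cells and 14.7 FPKM (interval 0 to 35.2) in PID+ cells, but the intervals were wide and overlapped (-2.29 on the log2 scale). Apc, of which 1 allele carries a frameshift in both groups and may still be transcribed, was at 29.8 and 27.7 FPKM. Gapdh, a glycolytic enzyme used for scaling in an alternative, was at 1666 and 2570.3 FPKM, with a log2 change of 0.62 and intervals that overlapped.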

How the data were processed

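Poly(A) RNA of cells from 3 mice per condition was sequenced. According to the submitters' notes and methods, adapters were removed with cutadapt, reads were aligned with TopHat and Bowtie2 to GRCm38.p3 with coding gene models, and the reads of a condition were merged. The authors deposited 1 FPKM per gene and condition from CuffDiff, with confidence bounds. The labels name 3 mice per condition, while the methods speak of sequencing runs. Values called treated were taken as PID+.

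Of 21966 genes, 7 without an OK status were left out. Symbols matched 21727 of 21959 identifiers. Log2 changes used FPKM + 1, and errors were propagated from the deposited bounds. What a read is worth in FPKM was estimated on 874 (PID+) and 830 (PID-) genes with 1 transcript, of which 83.3% and 84.1% lay within 0.1 of a whole number. It is approximate for other genes, and sequencing depth was not given by the table. The total FPKM was 545309.6 in PID- cells and 585869.7 in PID+ cells. Positions and 3' UTRs came from Gencode M21.

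The members and lists were chosen with earlier results of these data known. The genes named are the members, of each pathway list those past 3-fold and the 3 with the highest mean FPKM, the Group I Paks, Apc and Gapdh; 1 gene that the rule names is counted in its list but not reported here; markers named beside their list sums, and other genes, were chosen after their values were seen. Alternatives were another pseudocount, equal total FPKM, upper quartile or Gapdh, chromosome or window medians subtracted, filters on mean FPKM and narrower intervals. The calculations were tested on simulated data. Python 3.11.15, numpy 2.4.6, pandas 2.3.3 and matplotlib 3.10.9 were used.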

Additional observations from a re-analysis of the deposited data

How the results depend on the processing

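Each condition is a single pooled value, so no mouse could be left out in turn. No paired analysis was made, because the labels name different mice in each condition and give no pairing. The log2 changes of Tgfb2 and Tgfbr3 kept their sign and stayed past 3-fold in each alternative tried; with a pseudocount of 0.1 they were -5.08 and -5.22. With equal Gapdh, Tgfbr1 was at -0.65, Tgfbr2 at -0.61 and the median of the members at -0.65, while 3 members (with Tgfb1) were past 3-fold lower. The other changes moved by less than their propagated error. Tgfb3 was the member past 2-fold higher, and that count was 0 with equal total FPKM, with equal Gapdh and, because its mean is lower, among genes that averaged 5 FPKM or more. With intervals shrunk to their inner part of 1 deposited SD, 3 members (with Tgfb1) had intervals apart. The share over all genes at that width was not computed, so this count has no comparison and is not a result about Tgfb1.

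Of the pathway genes, 17 were past 3-fold lower and 2 higher with a pseudocount of 0.1, and 5 were past 2-fold higher. With equal Gapdh 17 were past 3-fold lower, 39 past 2-fold lower and 1 past 2-fold higher, which was also 1 with equal total FPKM. Over all genes, a pseudocount of 0.1 gave 795 lower and 621 higher at 3-fold and 1523 and 1434 at 2-fold. Equal Gapdh gave 662 and 76 at 3-fold and 2408 and 259 at 2-fold. Genes that averaged 5 FPKM or more gave 221 and 144 at 3-fold and 486 and 468 at 2-fold, fewer because fewer genes were counted. The cause of the other shifts was not tested. Subtracting the median of the 10 Mb around each gene, an alternative chosen after seeing the data, left the members' counts as they were. The deposited intervals limit the precision. They reach 2 deposited SD from each value, so an overlap does not by itself place a difference within the deposited error. Snai2, for example, had overlapping intervals at a log2 change of -2.64 (error 0.74). Neither kind of difference has a replicate check.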

Other observations

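Genes of the neighboring BMP branch are given here and were chosen after their values were seen. The Id genes are textbook targets of BMP signaling through Smad1 and Smad5. Id1 was at 138 FPKM in PID- cells and 76.8 FPKM in PID+ cells (log2 change -0.84), and Id3 was at 46.6 FPKM in PID- cells and 17.5 FPKM in PID+ cells (-1.36). In the other direction, Id2 was at 72.0 and 89.9 FPKM in PID- and PID+ cells (0.32) and Id4 at 0.417 and 2.97 FPKM (1.49). Atoh8, another described target, was at 5.69 and 0.0943 FPKM (-2.61), the largest change of these genes and on the lower side. The intervals of each of these genes overlapped, those of Atoh8 only just.

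Of the secreted modulators of BMPs Bmper, Grem1, Chrd and Nog, only Bmper had intervals apart. Bmp3, given above among the BMP ligands and also an antagonist, had intervals apart on the higher side. Bmper, which binds BMPs outside the cell, was at 10.3 FPKM (interval 3.21 to 17.3) in PID- cells and 1.06 FPKM (interval 0 to 2.45) in PID+ cells, and its log2 change was -2.45. The antagonists Grem1 (3.01 and 0.343 FPKM in PID- and PID+ cells) and Chrd (3.51 and 0.519 FPKM) had the lower value in PID+ cells, and the antagonist Nog (0.415 and 2.62 FPKM) the higher one, and the intervals of each overlapped. Their values are low, and on the FPKM + 1 scale, which understates the change of a low gene, the log2 changes were -1.58, -1.57 and 1.36.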
